A study of Homo sapiens with 36 samples.

Results

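OR51E1 and OR51E2, a pair of neighbouring olfactory receptor genes, were followed through RNA sequencing of LNCaP cells, an androgen-sensitive line established from a lymph node metastasis of prostate cancer. They are 2 of the 29872 genes in the deposited table and were found by their Ensembl identifiers, ENSG00000180785 and ENSG00000167332. OR51E1 was chosen on measured values, namely its rise in treated over vehicle libraries at 72 h, and OR51E2 was added as its closest relative at the same locus, so the differences from vehicle at 72 h and between the vehicle groups are given as descriptions with no test. Cells received vehicle, AU2-94 (1 µM or 2 µM), atirmociclib (1 µM or 2 µM) or ribociclib (2 µM) and were collected after 24 h or 72 h, which makes 12 groups of 3 biological replicates and 36 libraries. AU2-94 and atirmociclib are inhibitors selective for CDK4, the kinase that drives entry into the cell cycle with cyclin D, and ribociclib inhibits both CDK4 and CDK6. All groups were the same unmodified cell line, and cells meant for 72 h were seeded at a lower density than those for 24 h. The experiment asked how CDK4 inhibition alters gene expression in this hormone-responsive line.

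Olfactory receptors are G protein-coupled receptors that sense volatile and small water-soluble molecules in the nose, where they act through the G protein subunit encoded by GNAL, the adenylyl cyclase ADCY3 and a channel opened by cAMP. OR51E1 and OR51E2 are best known outside the nose: both are expressed in prostate epithelium, OR51E2 is also called the prostate-specific G protein-coupled receptor, and fatty acids are among the ligands described for the pair.

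OR51E1 lies on chromosome 11 at 4643420 to 4655488 on the plus strand of GRCh38, and OR51E2 at 4680171 to 4697854 on the minus strand (GENCODE annotation). The transcripts holding the full coding sequences have 2 exons each, and the coding sequence, of 954 bases in OR51E1 and 960 bases in OR51E2, lies within 1 exon. Aligned over 940 bases, the coding sequences were 66.2% identical, and the longest run of identical bases was 17, below the length of a single sequencing read. The 60-base coding stretch in which the pair is most alike is shown because it is where reads of one gene could most easily be taken for the other. It covers chr11:4652878-4652937 on the plus strand in OR51E1 (coding bases 352 to 411) and chr11:4682313-4682372 on the minus strand in OR51E2 (coding bases 340 to 399), and capitals mark the 5 positions that differ, read 5′ to 3′.
OR51E1: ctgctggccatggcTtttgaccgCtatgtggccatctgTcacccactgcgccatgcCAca
OR51E2: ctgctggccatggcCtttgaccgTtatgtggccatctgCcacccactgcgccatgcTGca
OR51E2 has 201 exon bases, 6.9% of its exons, in common with the same-strand gene OR51C1P, so reads from these bases cannot be assigned to one of them. OR51C1P itself had a mean of 2.9 normalised counts over the libraries. In a BLAST search of annotated transcripts, 341 other genes shared a stretch of at least 100 bases with OR51E2 at any identity, and 0 did with OR51E1. Only OR51C1P was nearly identical to OR51E2 over such a stretch. Whether reads of the less similar genes were counted for OR51E2 was not tested.

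Values are the deposited normalised counts, a signal per gene whose upstream scaling is not given in the sources used here. The library totals ran from 20675156 to 22692555. The 7 luminal prostate markers KLK3, KLK2, HOXB13, FOLH1, TMPRSS2, KRT8 and KRT18 were present in every library. Their sum was 66469 to 72434 in the 6 vehicle libraries and 90135 to 130539 in the 30 treated libraries. The sum thus moved with treatment as OR51E1 did at both times and OR51E2 at 72 h, and its part in the results was not tested. Its members did not all follow it. At 72 h, 4 of the 7 passed as higher under each dose of AU2-94, beside 15.4% (1 µM) and 14.2% (2 µM) of all genes. There KRT18 passed as lower (log2 difference -0.13 at 1 µM and -0.11 at 2 µM), and HOXB13 and KRT8 did not pass. Of 15 markers of other cell types, 14 were in the table. At 24 h their sum overlapped, with 754 to 899 in vehicle and 615 to 928 in treated libraries. At 72 h it was 747 to 933 in vehicle and 855 to 1522 in treated libraries. COL1A1 (194 to 644 over all libraries) and VWF (184 to 713) made up most of this sum. The basal keratin KRT14 rose under all 5 treatments, from 12.7 in vehicle to group means of 29.5 to 47.2 at 24 h (log2 difference 1.36 to 2.02, limma adjusted p = 0.000914 to 0.0128). At 72 h it went from 17.6 in vehicle to group means of 52.2 to 73.2 (1.79 to 2.26, limma adjusted p = 0.000363 to 0.0038). It thus moved with OR51E1 at both times and with OR51E2 at 72 h, while OR51E2 did not pass at 24 h. VWF, made by endothelial cells, rose under all 5 at 72 h (0.61 to 1.67) and passed under 0 of 5 at 24 h. The neuroendocrine marker SYP had 6.61 to 36 and fell under atirmociclib at 2 µM at both times. Other markers were lower, with a highest value of 1.01 for KRT5 and 4.04 for TP63 (basal), 4.34 for PECAM1 (endothelial), 1.7 for CHGA (neuroendocrine) and 7.09 for PTPRC (immune). Beside COL1A1, the stromal markers COL3A1 and PDGFRB had highest values of 36.9 and 48.7. At 24 h COL1A1 fell under AU2-94 at 2 µM, atirmociclib at 2 µM and ribociclib (-0.74 to -0.42). COL3A1, with a mean of 8.38 in vehicle, rose at 24 h under AU2-94 at 2 µM, atirmociclib at 1 µM and ribociclib (1.14 to 1.29). PDGFRB did not pass at 24 h, and none of these stromal markers passed at 72 h. The part of these markers in the results was not tested.

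OR51E1 was low in vehicle and at a similar, high level under almost all of the inhibitors. Its normalised counts in the 3 vehicle libraries at 24 h were 35.1, 28.5 and 20.3. At 24 h they were 184, 256 and 246 under AU2-94 at 1 µM, and 247, 249 and 248 under AU2-94 at 2 µM. Under atirmociclib they were 199, 198 and 182 at 1 µM, and 133, 133 and 66.1 at 2 µM. All 15 treated libraries stood above all 3 vehicle libraries, and the lowest of the 15 was replicate 3 of atirmociclib at 2 µM. Ribociclib at 2 µM gave 243, 208 and 291. In bulk RNA, a larger share of cells with the transcript and more transcript in each cell cannot be told apart.

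The rise of OR51E1 at 24 h passed the test under all 5 treatments, each relative to the same 3 vehicle libraries. A gene passed when the Benjamini-Hochberg adjusted p from limma, over the 16137 genes tested at 24 h, was at most 0.05. On the scale of log2(normalised count + 1), the difference from vehicle was 3.00 ± 0.23 (SE, n = 3 per group, limma adjusted p = 2.37e-08) for AU2-94 at 1 µM and 3.14 ± 0.23 (adjusted p = 8.51e-09) for 2 µM. It was 2.77 ± 0.23 (limma adjusted p = 3.53e-08) for atirmociclib at 1 µM, 1.91 ± 0.23 (adjusted p = 4.22e-06) for atirmociclib at 2 µM and 3.12 ± 0.23 (adjusted p = 8.72e-09) for ribociclib. These are rises of 3.76- to 8.79-fold. The background was large. In these contrasts 14.3%, 16.0%, 16.6%, 18.6% and 16.8% of all genes tested passed as higher, and 13.5%, 14.9%, 15.4%, 16.2% and 15.2% as lower, in the order AU2-94 1 and 2 µM, atirmociclib 1 and 2 µM and ribociclib. Ordered by log2 difference, OR51E1 stood between place 13 (ribociclib) and place 61 (atirmociclib 2 µM) from the top.

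At 72 h the level of OR51E1 in vehicle was lower still, with 4.79, 6.75 and 4.58 normalised counts. The gene had 337, 336 and 302 under AU2-94 at 1 µM, and 208, 293 and 254 at 2 µM. Atirmociclib gave 289, 247 and 267 at 1 µM, and 108, 177 and 162 at 2 µM. Here too all 15 treated libraries were above every vehicle library, with 108 in the lowest treated and 6.75 in the highest vehicle library. Ribociclib gave 244, 182 and 319. As a description of the values on which the gene was chosen, the log2 differences from vehicle (SE 0.21) were 5.69 (1 µM) and 5.31 (2 µM) for AU2-94, 5.41 (1 µM) and 4.54 (2 µM) for atirmociclib, and 5.27 for ribociclib. Among 16341 genes these were places 5, 7, 2, 5 and 2 from the top. The shares of genes passing as higher in these contrasts were 15.4%, 14.2%, 20.0%, 20.9% and 15.5%, and as lower 17.0%, 15.3%, 19.8%, 19.6% and 15.4%, in the same order.

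Both time points must be read with the change in the vehicle groups. From 24 h to 72 h the mean of OR51E1 in vehicle went from 28.0 ± 7.39 to 5.37 ± 1.20 (SD, n = 3 each), a log2 difference of -2.17 ± 0.23 (SE). Means in treated groups were 229 and 325 under AU2-94 at 1 µM, 248 and 252 at 2 µM, 193 and 268 under atirmociclib at 1 µM, 111 and 149 at 2 µM, and 247 and 248 under ribociclib, for 24 h and 72 h respectively. The libraries of the 2 times did not overlap in vehicle, where 72 h was lower, nor under AU2-94 at 1 µM and atirmociclib at 1 µM, where 72 h was higher. They overlapped under ribociclib, AU2-94 at 2 µM and atirmociclib at 2 µM. Time is confounded with seeding density in this design, and the 2 cannot be told apart.

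Ordered by mean, the 12 groups ran from 325 (AU2-94 1 µM, 72 h) to 5.37 (vehicle, 72 h). Neighbours in this order whose libraries did not overlap were AU2-94 1 µM at 72 h (325) over atirmociclib 1 µM at 72 h (268), atirmociclib 1 µM at 24 h (193) over atirmociclib 2 µM at 72 h (149), atirmociclib 2 µM at 24 h (111) over vehicle at 24 h (28.0), and vehicle at 24 h over vehicle at 72 h. The 7 other neighbouring pairs overlapped.

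OR51E2 was a low-abundance transcript in these cells. In vehicle at 24 h its normalised counts were 19.1, 10.8 and 21.1. They were 11.1, 29.7 and 28.7 under AU2-94 at 1 µM, and 23.4, 34.2 and 35.4 at 2 µM. Atirmociclib gave 33.5, 35.2 and 33.6 at 1 µM, and 33.8, 18.1 and 25.2 at 2 µM. Of 15 treated libraries, 12 were above every vehicle library, so the groups overlapped. Ribociclib gave 44.1, 17.2 and 30.7, the widest spread of the treated groups at this time by its SD (13.4).

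None of the 5 differences of OR51E2 from vehicle at 24 h passed the test. They were 0.36 ± 0.39 (SE, limma adjusted p = 0.541) and 0.86 ± 0.39 (adjusted p = 0.109) under 1 µM and 2 µM of AU2-94. Under atirmociclib they were 1.02 ± 0.39 (limma adjusted p = 0.0564) and 0.58 ± 0.39 (adjusted p = 0.279) in the same order of dose, and under ribociclib 0.77 ± 0.39 (adjusted p = 0.148). The 95% intervals reached from -0.47 to 1.19 for AU2-94 at 1 µM and from 0.19 to 1.84 for atirmociclib at 1 µM, and the upper bound lay above 1, a doubling, in each of the 5. The value for atirmociclib at 1 µM lay just outside the threshold and passed when only the 2 groups compared were fitted (adjusted p = 0.0348) or after quantile normalisation (1.12, adjusted p = 0.0357). Without ribociclib replicate 2, the ribociclib difference was 1.12 and passed (adjusted p = 0.0491).

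At 72 h vehicle had 4.45, 0 and 3.51 normalised counts of OR51E2. AU2-94 gave 13.1, 26.0 and 71.0 at 1 µM, and 17.3, 24.4 and 24.7 at 2 µM. Atirmociclib gave 31.3, 29.9 and 45.2 at 1 µM, and 34.5, 25.9 and 25.8 at 2 µM. All 15 treated libraries stood above the 3 vehicle libraries. Ribociclib gave 30.8, 35.2 and 26.0. The descriptive log2 differences from vehicle (SE 0.55) were 3.37, 2.97, 3.63, 3.34 and 3.43 in the order used above. They rest on a vehicle group close to 0: without replicate 2, listed at 0, they were 2.61, 2.20, 2.86, 2.57 and 2.66. The vehicle groups differed by -2.58 ± 0.50 (SE) between 72 h and 24 h, or by -1.81 without that replicate. Treated levels were alike at both times, with group means of 23.2 to 34.1 at 24 h and 22.1 to 36.7 at 72 h. Ordered by mean, all neighbouring groups overlapped except vehicle at 24 h over vehicle at 72 h.

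**Figure D1:**
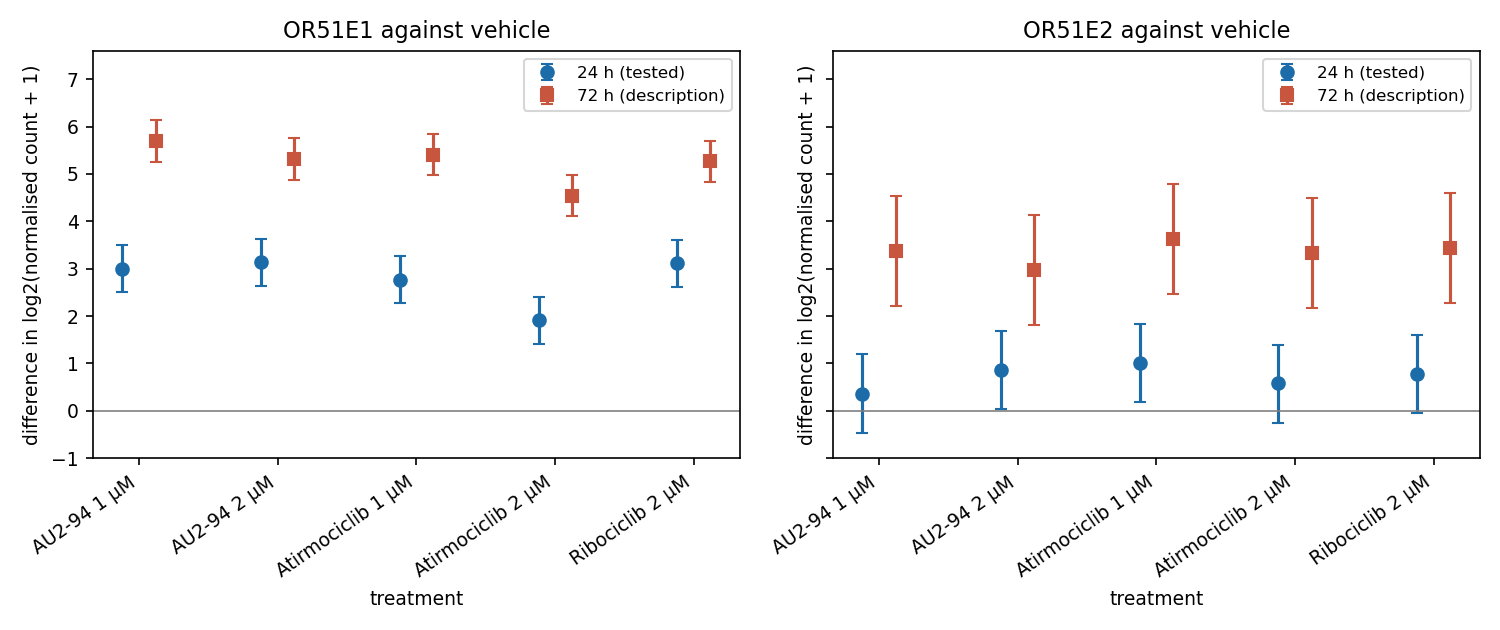
Difference from vehicle in log2(normalised count + 1) for OR51E1 (left) and OR51E2 (right) under the 5 treatments, with 24 h as blue circles, 72 h as red squares and bars for the 95% interval. OR51E1 lies between 1.91 and 3.14 (24 h) and between 4.54 and 5.69 (72 h), OR51E2 between 0.36 and 1.02 and between 2.97 and 3.63, where the 72 h values are descriptions of the contrast that chose OR51E1.

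Per kilobase of annotated exon, OR51E1 was above OR51E2 in each group mean. The length used joins all annotated exons of a gene, 3612 bases in OR51E1 and 2907 in OR51E2. Which transcripts these cells express is not known, so levels per kilobase depend on this choice. In vehicle the ratio of the means was 1.33 at 24 h (7.74 against 5.84 normalised counts per kb) and 1.63 at 72 h (1.49 against 0.913). The ratio at 72 h rests on normalised counts of 4.58 to 6.75 for OR51E1 and 0 to 4.45 for OR51E2. Single vehicle libraries went the other way: replicate 3 at 24 h had 5.63 for OR51E1 against 7.27 for OR51E2. Replicate 1 at 72 h had 1.33 against 1.53. In the treated groups the ratio lay between 3.47 (atirmociclib 2 µM, 24 h) and 9.16 (AU2-94 2 µM, 72 h). Over all 36 libraries the log2 levels of the 2 genes correlated with a Pearson r of 0.77, and over the 30 treated libraries with an r of 0.10. The libraries share batches and scaling, so both values are descriptions.

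Between agents at the same dose and time, atirmociclib at 2 µM stood apart for OR51E1. Agents were compared in 8 pairs per gene, and p-values were also adjusted over the 16 pairs of both genes. At 24 h the level under atirmociclib at 2 µM (mean 111 ± 38.7 SD) was lower than under AU2-94 at 2 µM (248 ± 1.08) by a log2 difference of -1.23 (95% interval -1.72 to -0.73, limma adjusted p = 0.00285, over the pairs 0.000573). It was also lower than under ribociclib at 2 µM (247 ± 41.7), by -1.21 (-1.70 to -0.71, limma adjusted p = 0.00487, over the pairs 0.000573). The 3 atirmociclib libraries were below all libraries of the other two groups. Without replicate 3 of atirmociclib the differences were -0.89 and -0.87 and still passed, and in a fit of only the 2 groups compared the difference from ribociclib had an adjusted p of 0.0504. In these contrasts 9.44% and 4.64% of all genes passed.

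At 72 h the same order was seen with smaller differences. The treated libraries of 72 h are among the values on which OR51E1 was chosen, so its p-values between agents and doses at 72 h do not come from an independent choice of gene. Atirmociclib at 2 µM had a mean of 149 ± 36 (SD) and was lower than AU2-94 at 2 µM (252 ± 43.0) by -0.77 (95% interval -1.21 to -0.33, limma adjusted p = 0.0126, over the pairs 0.00849). Relative to ribociclib (248 ± 68.4) the difference was -0.73 (-1.16 to -0.29, limma adjusted p = 0.0329, over the pairs 0.0101). The highest atirmociclib library (177) was below the lowest of ribociclib (182) and of AU2-94 (208). Of all genes, 19.8% and 9.18% passed in these contrasts. Single libraries decided both calls. Against AU2-94 the adjusted p was 0.0843 without atirmociclib replicate 1 (-0.56) and 0.0657 without AU2-94 replicate 2 (-0.65). Against ribociclib it was 0.172 without atirmociclib replicate 1 (-0.51), 0.0796 without ribociclib replicate 1 (-0.72) and 0.158 without ribociclib replicate 3 (-0.53). This call was also lost without the filter on low values (adjusted p = 0.0605), without the trended prior (0.0557), after quantile normalisation (0.0502) and in a fit of only the 2 groups compared (0.119).

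The remaining pairs of agents did not pass for OR51E1. Atirmociclib at 1 µM differed from AU2-94 at 1 µM by -0.23 (95% interval -0.72 to 0.26, limma adjusted p = 0.687) at 24 h and -0.28 (-0.72 to 0.16, adjusted p = 0.490) at 72 h. Ribociclib differed from AU2-94 at 2 µM by -0.02 (-0.51 to 0.47, limma adjusted p = 0.984) and -0.04 (-0.48 to 0.39, adjusted p = 0.945). These intervals leave room for differences of up to about 0.7 on the log2 scale in the first pair. The shares of genes passing were 4.64% and 8.24% for the first pair and 0.0372% and 3.34% for the second, at 24 h and 72 h. For OR51E2 no pair of agents passed at either time. Its largest difference was 0.66 (-0.17 to 1.48, limma adjusted p = 0.428), for atirmociclib over AU2-94 at 1 µM and 24 h, and the intervals at 72 h were as wide as -1.25 to 1.06 (atirmociclib against ribociclib).

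Between doses of one agent, OR51E1 was lower at 2 µM than at 1 µM of atirmociclib. At 72 h the means were 149 and 268, a log2 difference of -0.87 (95% interval -1.31 to -0.43, limma adjusted p = 0.0342), and the libraries did not overlap. These libraries too are among the values on which OR51E1 was chosen. At 24 h the means were 111 and 193 and the difference was -0.86 (-1.36 to -0.37), which did not pass (adjusted p = 0.276). The shares of genes passing were 2.19% at 72 h and 0.0124% at 24 h. The call at 72 h rests on its libraries: it was lost without any 1 of the 3 atirmociclib 1 µM libraries (adjusted p = 0.130, 0.0732 and 0.0933) and without replicate 1 (0.190) or 3 (0.0558) of atirmociclib 2 µM, with values of -0.95 to -0.66, and under the same 4 alternative settings (0.0572 to 0.0722). For AU2-94 the difference between doses was 0.13 (-0.36 to 0.63, limma adjusted p = 0.931) at 24 h and -0.38 (-0.82 to 0.06, adjusted p = 0.996) at 72 h. There 0.409% of genes passed at 24 h, and 0% at 72 h, where limma called 0 genes with 732 at an unadjusted p under 0.05. OR51E2 did not pass between doses: the differences were 0.50 and -0.40 for AU2-94 and -0.44 and -0.29 for atirmociclib, at 24 h and 72 h.

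**Figure D2:**
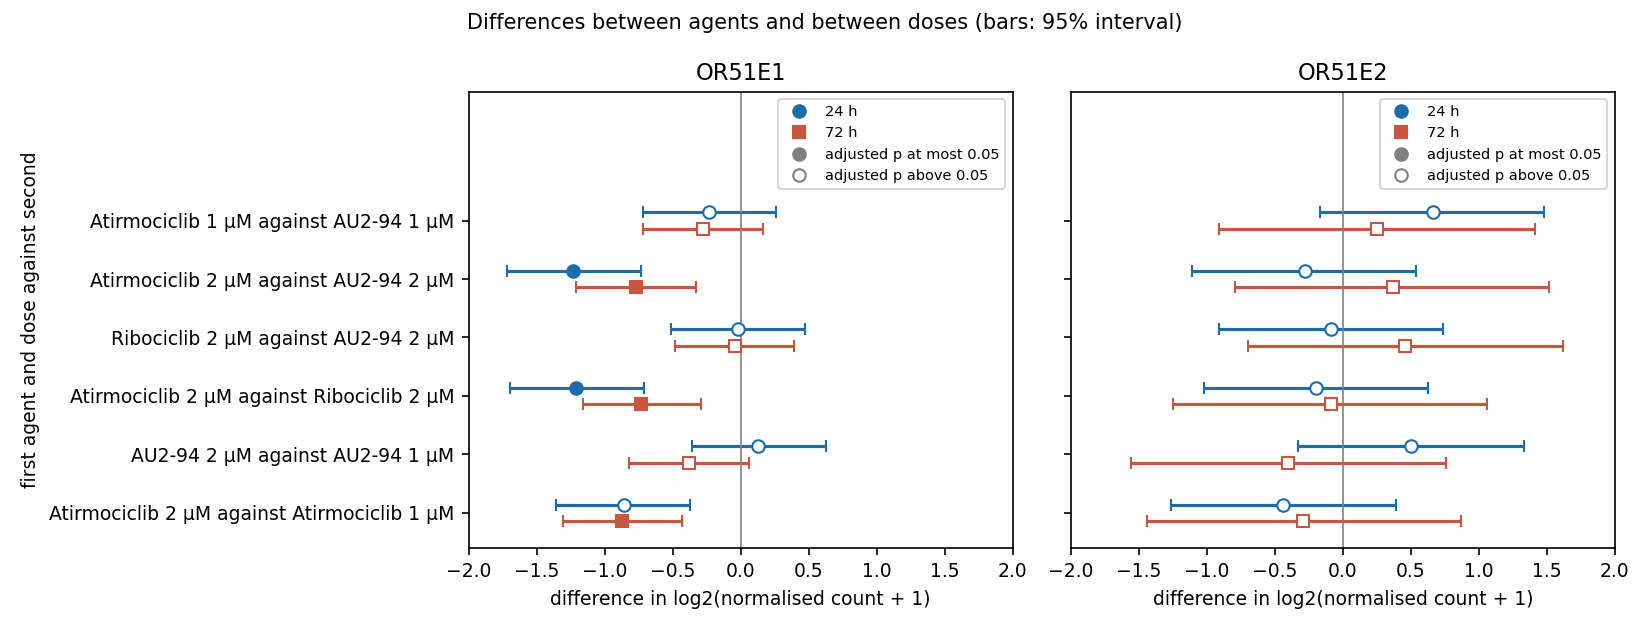
Differences in log2(normalised count + 1) between agents at the same dose and between doses of the same agent, for OR51E1 (left) and OR51E2 (right), with 95% intervals, circles for 24 h, squares for 72 h and filled symbols where the limma adjusted p was at most 0.05. The 5 filled symbols all belong to OR51E1 and to atirmociclib at 2 µM, at -1.23 to -0.73, and the libraries of 72 h are among the values on which OR51E1 was chosen.

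At the locus, no other olfactory receptor gene within 500 kb passed the filter on low values. Of 25 other genes in the table within 500 kb, TRIM21 and TRIM68, which encode ubiquitin ligases, were tested at both times. TRIM68 rose under all 5 treatments at 24 h (766 in vehicle and 948 to 1120 in treated group means, log2 difference 0.31 to 0.55) and at 72 h (515 and 893 to 1070, 0.81 to 1.08). TRIM21 rose under all 5 at 24 h (0.35 to 0.56) and under 0 of 5 at 72 h (0.00 to 0.26, limma adjusted p = 0.165 to 0.993). Of all genes, 14.3% to 18.6% passed as higher and 13.5% to 16.2% as lower at 24 h, and 14.2% to 20.9% passed as higher at 72 h. With 3 neighbours tested at 24 h and 2 at 72 h, a share of the neighbours cannot be set against these. SSU72L4 was tested at 24 h alone and fell under 2 treatments, from 16.4 in vehicle, with treated group means of 0.315 to 7.52. It reached 10 normalised counts in 4 of the 36 libraries. Its entry to the test thus rested largely on its vehicle level, and a fall was the likelier outcome. The gene beside OR51E1, OR51D1, had group means of 0.361 in vehicle and 1.05 under AU2-94 at 1 µM at 72 h.

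**Figure D3:**
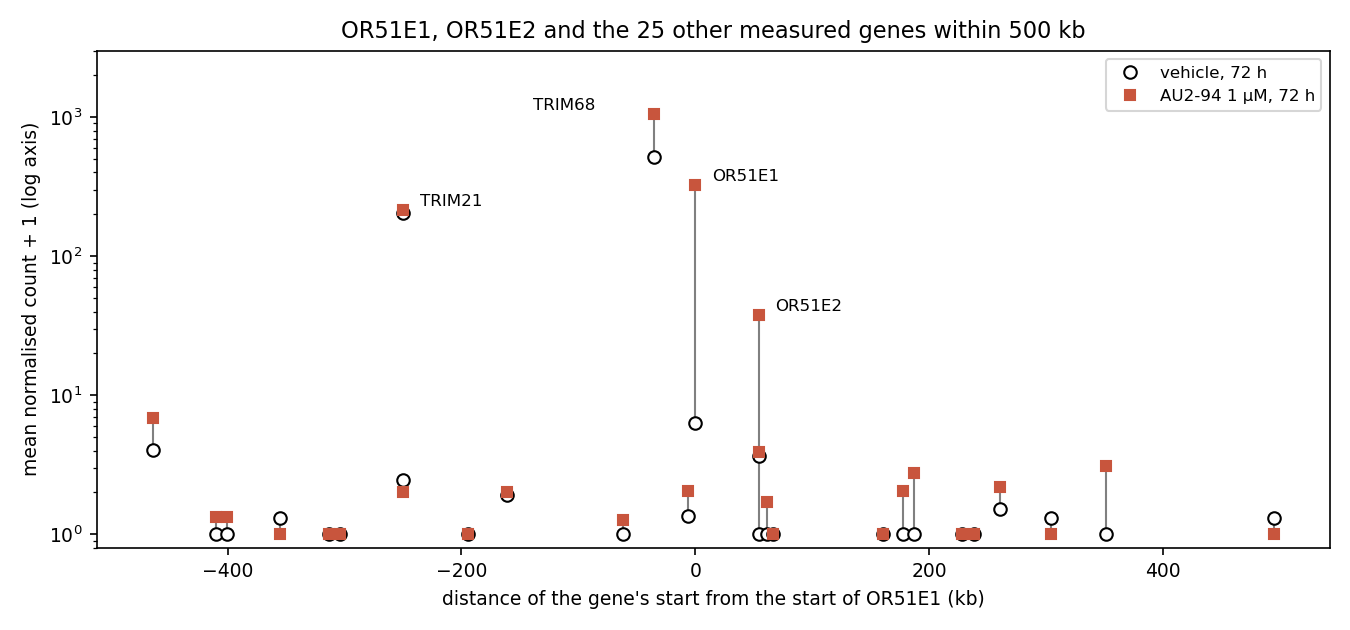
Mean normalised count plus 1 (log axis) at 72 h of OR51E1, OR51E2 and 25 other measured genes within 500 kb, against the distance of each gene's start from the start of OR51E1, for vehicle (open circles) and AU2-94 at 1 µM (red squares). OR51E1 goes from 5.37 to 325 and OR51E2 from 2.65 to 36.7, TRIM68 from 515 to 1048 and TRIM21 from 202 to 213, while the others stay at or below 5.87.

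Across the genome, 227 other olfactory receptor genes were in the table, and 166 of them never exceeded 3 normalised counts. At each time 18 could be tested. Of these, 1 passed as higher in AU2-94 at 1 µM at 24 h (OR52E6) and 0 in the other 4 treatments, with 0 lower in all 5, shares below those of all genes. At 72 h, 1 to 3 passed as higher and 0 or 1 as lower, again below the shares of all genes. The 5 with the highest means were OR2A7 (95.5), OR10D3 (80.7), OR8G1 (41.0), OR8A1 (34.8) and OR5B2 (32.6), and of these only OR2A7 passed in any contrast, as lower under 1 treatment at 72 h. OR52N1 and OR52N5, named after their values were seen, rose under 4 and 3 treatments at 72 h, with vehicle means of 15.0 and 19.8 and differences of 0.85 to 1.21 and 0.52 to 1.01. Medians of the 18 lay between -0.16 and 0.16, and those of all genes between -0.01 and 0.01.

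The machinery by which olfactory receptors signal in the nose was present only in part. Of 15 genes listed, 14 were in the table and 9 were tested. GNAL, which encodes the olfactory G protein subunit, had a median of 4.08 and, although below the level set for naming genes, showed the largest differences of the list. Its mean was 32.2 in vehicle at 24 h and 1.51 to 10.9 in the treated groups (log2 difference -3.37 to -1.48, SE 0.87). It fell under atirmociclib at 2 µM (limma adjusted p = 0.0339) and ribociclib (0.00601), with 0 of 5 passing at 72 h. Its entry to the test at 24 h rested largely on its vehicle level, so a fall was the likelier outcome. The counts of lower genes below include these falls. The cAMP-gated channel subunits CNGA4 and CNGB1 had medians of 0.975 and 0, and the olfactory marker OMP 1.15. GNAS, which encodes the general stimulatory G protein subunit, had a median of 17398. At 24 h, 2 to 4 of the 9 passed as higher and 1 to 3 as lower, and at 72 h 0 to 2 and 0 to 1, with list medians of -0.16 to 0.21. For comparison, 14.3% to 18.6% of all genes passed as higher and 13.5% to 16.2% as lower at 24 h, and 14.2% to 20.9% and 15.3% to 19.8% at 72 h. The list's share of higher genes was above these at 24 h and its share of lower genes below them at 72 h, while its other shares lay on both sides. This list too was chosen with earlier results of these data known, so these shares are descriptions. ADCY3, the cyclase of olfactory neurons, fell under all 5 treatments at 24 h, from 670 to group means of 331 to 515 (log2 difference -1.02 to -0.37), and under 1 of 5 at 72 h. GNG13, a G protein gamma subunit, rose under 4 of 5 at 24 h (0.51 to 0.80) and GRK3, a receptor kinase that desensitises receptors, under 2 (0.21 to 0.47). Neither passed at 72 h.

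Transport of olfactory receptors to the cell surface is helped by RTP and REEP proteins. Of 10 such genes 9 were in the table, and RTP2, RTP3 and RTP4 were at or below 2.31 in every library. Of 6 tested at 24 h, 2 rose and 1 fell in each treatment, namely REEP6 (0.44 to 0.61), REEP5 (0.28 to 0.46) and REEP4 (-0.74 to -0.41). Of 5 tested at 72 h, 1 rose in each treatment, REEP6, with 1230 in vehicle and 1500 to 2160 in treated groups (0.28 to 0.81). REEP4 fell under 3 of 5 at 72 h (-0.26 to -0.15 over the 5). The 2 of 6 that rose at 24 h are a larger share than the 14.3% to 18.6% of all genes that passed as higher there. In the other counts, with 5 or 6 genes tested, 1 gene is about the share that passed over all genes (14.2% to 20.9% as higher, 13.5% to 19.8% as lower). The list is small and was chosen with earlier results of these data known, so these shares are descriptions.

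Among 26 genes of cAMP signalling, 20 were tested, 1 to 3 were higher and 1 to 5 lower per contrast, and list medians lay between -0.17 and -0.03. The share of higher genes was below that of all genes (14.2% to 20.9%) in each contrast, and that of lower genes lay on both sides of it (13.5% to 19.8%). PDE4D, which encodes a phosphodiesterase that degrades cAMP, fell under all 5 treatments at both times, from 472 in vehicle to 179 to 216 at 24 h (-1.42 to -1.14) and from 607 to 398 to 461 at 72 h (-0.62 to -0.40). Its relative PDE4A fell under all 5 at 24 h (-1.69 to -1.11) and under 0 at 72 h (-0.49 to -0.10). The cyclase ADCY7 fell under 3 treatments at 24 h (-1.60 to -0.37 over the 5) and rose under 2 at 72 h (0.31 to 1.01). The genes that follow are outside the naming rule and were added after their values were seen. The cyclase ADCY6 rose under all 5 treatments at 72 h, from 740 to group means of 1130 to 1470 (0.63 to 1.01, limma adjusted p = 7.5e-07 to 0.000248), and passed under 0 of 5 at 24 h (-0.31 to -0.04). RAPGEF4, a low-level gene for a cAMP-activated exchange factor, differed by 0.35 to 1.74 at 24 h, where it did not pass, and by -1.77 to -0.13 at 72 h, where it fell under ribociclib (limma adjusted p = 0.0467). RAPGEF3 fell at 24 h under all treatments except AU2-94 at 2 µM (-1.26 to -0.67 over the 5) and did not pass at 72 h. PRKAR1A rose under all 5 at 24 h (0.13 to 0.40), and at 72 h under atirmociclib at 2 µM alone (0.16).

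Of 8 calcium entry genes, listed because OR51E2 signalling in prostate cells has been linked to calcium influx, 7 were tested. In each contrast 2 to 4 were higher and 1 or 2 lower, with list medians of 0.09 to 0.61. The share of higher genes was above that of all genes (14.2% to 20.9%) in each contrast, and that of lower genes lay on both sides of it (13.5% to 19.8%). The list was chosen with earlier results of these data known and had 7 genes tested, so the higher share is a description. TRPM8, a cold-sensing channel expressed in luminal prostate cells, rose under all 5 treatments, from 502 to 947 to 1190 at 24 h (0.91 to 1.25) and from 329 to 1280 to 1390 at 72 h (1.97 to 2.08). TRPV6, an epithelial calcium channel, also rose under all 5 at 24 h (0.29 to 0.61) and at 72 h (0.65 to 0.94). ORAI2 rose under all 5 at 24 h (0.67 to 1.17) and under 0 at 72 h. Not every channel rose: ORAI1, outside the naming rule and added after its values were seen, fell under all 5 treatments at both times. Its differences were -0.45 to -0.24 at 24 h (limma adjusted p = 0.000711 to 0.0493). At 72 h they were -0.68 to -0.45 (limma adjusted p = 3.16e-06 to 0.000455). Of 10 receptors for fatty acids and other metabolites 7 were in the table. FFAR2, with a median of 6.24, was the one tested, at 72 h alone, and it did not pass (limma called 0).

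The genes most like each receptor were found by Pearson correlation of log2(normalised count + 1) over the 36 libraries, which share batches and the split into vehicle and treated groups. For OR51E1, among 12474 genes, they were RIPOR2 (r = 0.971), the androgen-regulated kallikrein KLK2 (0.964), the TNF receptor family member TNFRSF19 (0.957), the zinc finger gene ZNF462 (0.947) and TMEM45B (0.944). Over the 12 group means their r was 0.968 to 0.984. RIPOR2 had vehicle means of 498 and 208 at 24 h and 72 h and differences from vehicle of 0.73 to 1.06 and 2.17 to 2.58. KLK2 had vehicle means of 3172 and 2338 and differences of 0.48 to 0.77 and 1.05 to 1.4. All 5 were, like OR51E1, lower in vehicle at 72 h than at 24 h.

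For OR51E2, among 12475 genes, the order was RGS11, a regulator of G protein signalling (r = 0.884), the transcription factor ZBTB16 (0.806), ENSG00000287692 (0.805), ZNF506 (0.8) and CAMK2B, a subunit of a calcium-dependent kinase (0.799). RGS11 had the closest sizes, with vehicle means of 29.0 and 7.97 and differences from vehicle of 0.97 to 1.49 at 24 h and 2.69 to 3.27 at 72 h. The other 4 differed from vehicle by 0.22 to 0.88 at 24 h and 0.52 to 1.81 at 72 h.

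A pair of androgen-regulated genes is given for context. KLK3, which encodes prostate-specific antigen, rose under all 5 treatments, by 0.31 to 0.45 (24 h) and 1.14 to 1.38 (72 h), and TMPRSS2, a membrane protease, by 0.92 to 1.34 and 1.54 to 2.12. The differences of OR51E1 were larger than those of these 2 genes in every contrast, a comparison that was not tested.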

How the data were processed

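RNA was sequenced from LNCaP cells in 36 libraries (12 groups of 3 biological replicates, grouped by the sample labels). Total RNA libraries were sequenced with paired ends, processed by the authors with nf-core/rnaseq, aligned to GRCh38 with STAR (2.6.1d, per the submitters' processing notes) and analysed with DESeq2. The deposited values are a signal, normalised counts of 29872 Ensembl genes, not whole counts: 21.4% to 51.4% of low values per library were whole multiples of a step (tolerance 0.02 of a step), so no count model was used. The annotation, strand setting and scaling used upstream are not given in the sources used here, and the number of reads per library is unknown. Library totals of 20675156 to 22692555 are sums after that scaling and do not give the depth, which limits low values most.

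Genes with at least 10 normalised counts in at least 3 libraries fitted were tested with limma 3.58.1 (R 4.3.3) on log2(normalised count + 1), with a trended prior and the 6 groups of 1 time in 1 fit. The test was 2-sided, and an adjusted p of at most 0.05 passed. Fold changes on this scale understate the change of low genes. The fit was tested on simulated data. Symbols, exons and neighbours came from GENCODE and coding sequences from its transcripts (BLAST 2.17.0 for near copies). The members and lists were chosen with earlier results of these data known. Named genes were the pair, the 5 most correlated genes for each (mean of at least 50), the 5 other olfactory receptor genes of highest mean, neighbours within 500 kb, the 3 genes of largest mean absolute difference per list among those with a mean of at least 50, and KLK3 and TMPRSS2. Some genes fixed as markers or context are not reported here. The labels give the replicate number under a batch tag, and libraries sharing a number were treated as paired in an alternative fit (a replicate block). Deviations of same-numbered libraries from their group means correlated by 0.0018 on average at 24 h and -0.0022 at 72 h. Alternatives changed the pseudocount, filter, scaling, model and libraries.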

Additional observations from a re-analysis of the deposited data

How the results depend on the processing

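OR51E1 passed against vehicle at 24 h, in the same direction, under every alternative run (1.68 to 3.31 on the log2 scale). The replicate block, with batch as a term, changed no call: OR51E1 for AU2-94 1 µM at 24 h was 3.00 with the block (adjusted p = 1.10e-07), and atirmociclib 2 µM against 1 µM at 72 h -0.87 (adjusted p = 0.0463). Where a call or value changed, the cause was not tested. With a pseudocount of 8, differences from vehicle at 72 h (AU2-94 1 and 2 µM, atirmociclib 1 and 2 µM, ribociclib) were 4.64, 4.27, 4.37, 3.53 and 4.23 for OR51E1 and 1.88, 1.52, 2.04, 1.80 and 1.88 for OR51E2, and the vehicle change over time -1.41 and -1.23. The call for OR51E1 of atirmociclib against ribociclib at 72 h was lost without the filter on low values (-0.73, adjusted p = 0.0605), under quantile normalisation (-0.67, 0.0502), without the trend (-0.73, 0.0557) and with only the groups compared (-0.73, 0.119), as was that of atirmociclib 2 µM against 1 µM (-0.87, 0.0625; -0.82, 0.0572; -0.87, 0.0722; -0.87, 0.0578). With only the groups compared, atirmociclib against ribociclib at 24 h was also lost (-1.21, 0.0504), and OR51E2 under atirmociclib 1 µM at 24 h passed (1.02, 0.0348), as it did under quantile normalisation (1.12, 0.0357). Quantile normalisation turned the sign of ribociclib against AU2-94 at 24 h for OR51E1 (0.02) and OR51E2 (0.04), neither of which passed, and lowered the calls of the olfactory transduction list over the 10 contrasts from 32 to 21.

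Leaving out 1 library at a time gave, for OR51E1 at 72 h, -0.91 to -0.56 for atirmociclib 2 µM against AU2-94, -0.93 to -0.51 against ribociclib, -1.01 to -0.66 between atirmociclib doses and -0.24 to 0.16 for ribociclib against AU2-94, and at 24 h -0.14 to 0.10 for the last pair and -0.02 to 0.22 between AU2-94 doses. For OR51E2 it gave, at 24 h, 0.47 to 1.12 for ribociclib against vehicle, -0.39 to 0.26 for ribociclib against AU2-94 and -0.55 to 0.11 for atirmociclib against ribociclib, and at 72 h -0.23 to 0.01 for the latter, -0.30 to 0.88 for atirmociclib against AU2-94 at 1 µM and -0.95 to 0.23 between AU2-94 doses. The descriptive differences of OR51E2 from vehicle at 72 h ranged over 2.61 to 3.92, 2.20 to 3.43, 2.86 to 4.08, 2.57 to 3.79 and 2.66 to 3.89 in the order above, and its vehicle change over time from -3.03 to -1.81. A filter on a mean of at least 100 removed OR51E2 and gave no value for it. Reads per library are unknown, and values near those of vehicle at 72 h, under 7 normalised counts for OR51E1 and under 5 for OR51E2, fix no precise fold.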
